A study of Homo sapiens with 6 samples.

Results

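The 108 genes described here bear systematic names of long non-coding RNA (lncRNA) genes on the platform. Their mean signal lay above background in HaCaT, a line of human keratinocytes that became immortal spontaneously in culture. They were chosen by name and by signal. The platform's single symbol had to begin with LINC and a number, the name given to intergenic lncRNAs, or end in -AS1, -AS2 or -AS3, the name given to lncRNAs read from the strand opposite a named gene. The mean over all 6 arrays also had to lie above 6.01 on the log2 scale, the level of the brightest of 23 background control sets. Of 1294 names that match, 108 (8.35%) passed, 44 of 542 LINC names and 64 of 752 antisense names, against 41.6% of all 22427 genes with a single symbol. The 1186 that did not pass had a median mean signal of 4.22. The choice used the mean over both groups and not the difference between them. For 4 members, though, a group mean lay below the limit, so they passed only through the other group.

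Cultures were irradiated with a single X-ray dose of 20 Gy at 1.15 Gy per min or mock-irradiated (0 Gy), and RNA was collected after 48 h. Each group held 3 cultures labelled as biological replicates, numbered alike in both groups, with 1 array each. All 6 cultures come from this 1 line, and the labels do not say whether replicates were grown on separate days. The design asks which mRNAs and lncRNAs differ after irradiation.

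Long non-coding RNAs are transcripts without a known protein product. Some act in cis on a neighbouring gene, others in trans by binding proteins, mRNAs or microRNAs, and for many no function is known. An antisense lncRNA may start close to its sense gene's promoter and run away from it, or overlap the sense transcript. In epidermal keratinocytes, lncRNAs such as LINC00941 are known to hold back or promote terminal differentiation.

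Array medians over all 67528 transcript clusters ran from 4.53 to 4.66. Of 12 keratinocyte markers, 8 were measured by a cluster with a single symbol and all 8 lay above the limit (lowest mean 11.26, ITGB4; highest 17.38, KRT5), while 0 of 14 measured markers of fibroblasts, melanocytes, endothelial cells and leukocytes did (highest mean 5.26). In these bulk samples, fewer cells with a transcript and less of it per cell cannot be told apart. With 3 arrays a group, precision is limited throughout.

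The names did not all hold up against the current annotation. In RefSeq (GRCh38.p14), 99 of the 108 symbols lead to a lncRNA, 5 to a protein-coding gene and 4 to a transcribed pseudogene. FAM83H-AS1 is now listed as the coding gene IQANK1 and LINC00083 as CLEC20A, while LINC00444 and HNRNPU-AS1 appear as older names of SUCLA2 and HNRNPU. LINC00152 is now CYTOR, a lncRNA named for its part in cytoskeleton regulation. Platform names are kept below. HLA-F-AS1 was measured by a cluster on an alternate haplotype of the major histocompatibility region, and its 6 values equal those of another cluster.

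Most of these genes gave signals just above background. The median of their mean signals was 6.77, and 64 had a mean between 6 and 7, 23 between 7 and 8, 15 between 8 and 10 and 6 above that. On single arrays between 89 and 105 of them lay above the limit, and 81 did so on all 6 arrays. Signals of different clusters rest on different probes, so they do not rank the transcripts by abundance. LENG8-AS1 (6.011), LINC00362 (6.016) and HLA-F-AS1 (6.03) were the members closest above the limit, and LINC00594 (6.006), FAM83C-AS1 (5.994) and USP2-AS1 (5.99) the names closest below it. For 4 members 1 group mean lay below the limit, the mock mean for 2 and the irradiated mean for 2.

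**Figure D1:**
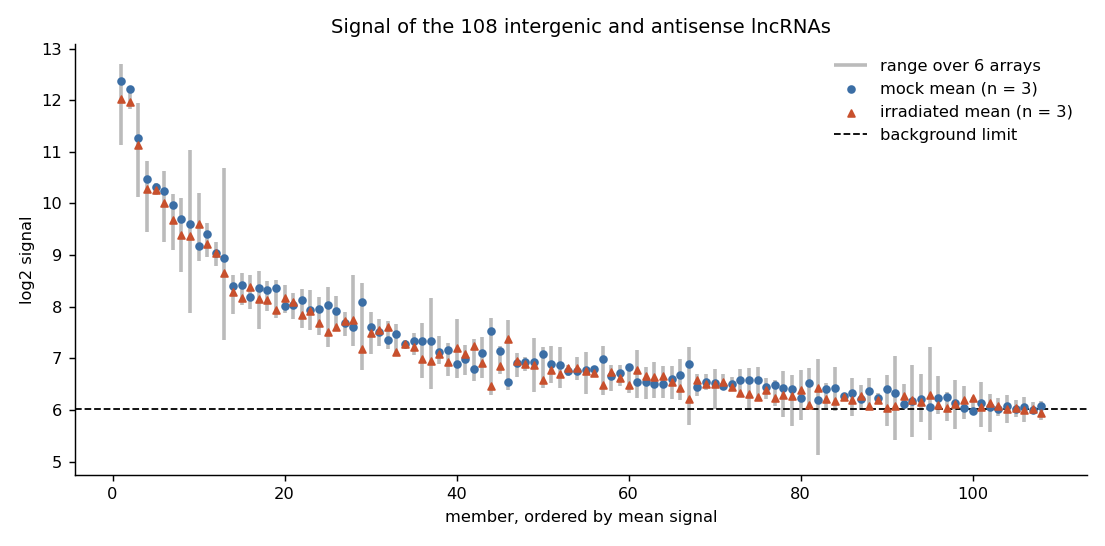
Log2 signal of each of the 108 genes with lncRNA names, ordered by mean. Grey bars span the 6 arrays, circles and triangles give mock and irradiated means (n = 3 each), and the dashed line is the background limit of 6.01; 64 genes have a mean between 6 and 7.

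After irradiation 9 of the 108 genes (8.33%) passed the paired test, 8 lower and 1 higher, where 4.92% of all 9331 genes tested passed. The lower calls were LINC02035, PCNA-AS1, LINC01004, PITPNA-AS1, ZNF143-AS1, LINC00938, LINC00294 and DGUOK-AS1, and the higher call was LINC00415. Taken by direction, 7.41% of the members were called lower against 3.65% of all genes, and 0.926% higher against 1.26%. The test was limma with the replicate number as a block, two-sided, over all 9331 genes above the limit, with Benjamini-Hochberg adjustment and a threshold of 0.05. The block was used because cultures were compared by replicate number. At an unadjusted p under 0.05 stood 39 members (36.1%, against 28.9% of all genes). Without the block, limma called 0 genes of the 9331 (310 at unadjusted p under 0.05) and 0 members (11 at unadjusted p under 0.05, lowest adjusted p = 0.9995). With the block but over all 67528 clusters it also called 0 (27 members at unadjusted p under 0.05, lowest adjusted p of a member 0.210), as it did over all genes with a single symbol (35 members, lowest 0.0763). At that unadjusted p stood 10237 of the 67528 clusters and 4906 of the 22427 genes with a single symbol. The calls thus rest on the pairing and on testing only genes above background. After quantile normalization, cyclic loess or centring of the arrays, 5, 5 and 6 members passed, 4.63%, 4.63% and 5.56%, against 2.18%, 2.18% and 2.88% of all genes. With a limit of 7, 5 of 44 members passed (11.4%, against 6.35%), and the other called members had means below 7 and were not tested. Without culture pair 1, 2 or 3, 5, 3 and 4 members passed (4.63%, 2.78% and 3.70%), against 2.69%, 0.707% and 1.5% of all genes.

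The members' median difference, irradiated minus mock, was -0.075, with -0.13, -0.049 and -0.11 in pairs 1, 2 and 3, and the median over all genes tested was -0.090. A lower value was seen for 73 of 108 (67.6%), against 71.8% of all genes. In all 3 pairs 38 members were lower (35.2%, against 41.9% of all genes) and 12 were higher (11.1%, against 9.93%). Groups of arrays that did not overlap were seen for 10 members with the irradiated arrays lower (9.26%, against 7.71%) and 2 with them higher (1.85%, against 1.54%). LINC names had a median of -0.13 and antisense names of -0.056, and that difference was not tested.

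**Figure D2:**
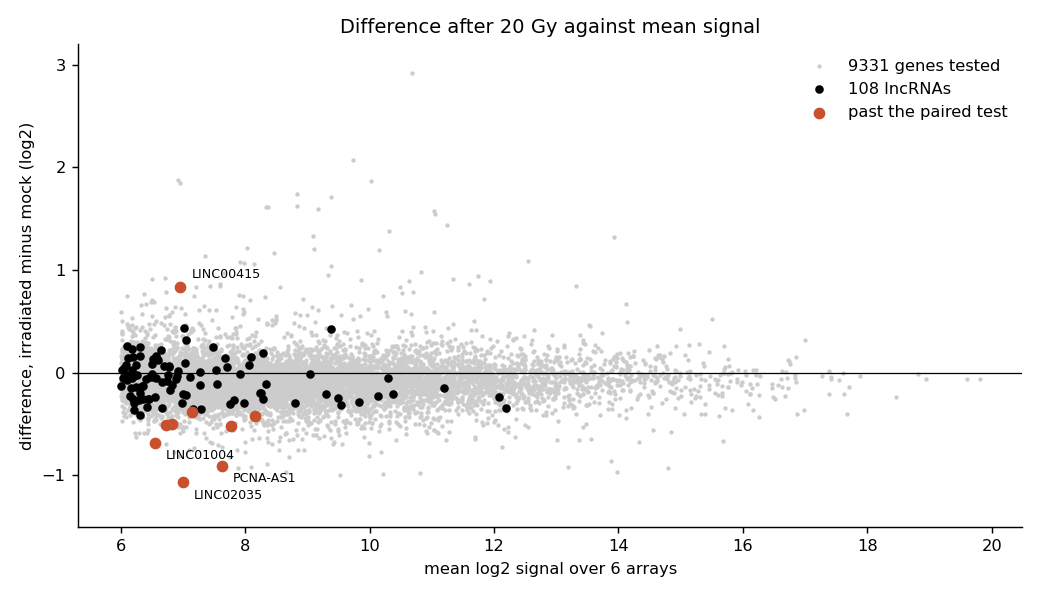
Difference between irradiated and mock arrays (log2) against mean log2 signal over 6 arrays, for the 9331 genes tested (grey), the 108 genes with lncRNA names (black) and the 9 of them past the paired test (orange). LINC02035 lies lowest, at -1.07, and LINC00415 is the one call above 0, at 0.83.

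LINC02035 showed the largest difference of the members. Its log2 signals were 7.47, 7.37 and 7.78 in mock cultures 1 to 3 and 6.28, 6.41 and 6.72 in the irradiated cultures. Every irradiated array lay below every mock array, and the pair differences of -1.18, -0.96 and -1.06 were alike. The gene fell by 1.07 (SE 0.074, 95% confidence interval -1.25 to -0.89, limma adjusted p = 0.0093), a 2.10-fold lower signal, and it was the only member past 2-fold.

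LINC01004 gave 7.23, 6.96 and 6.49 in mock cultures and 6.51, 6.39 and 5.72 in irradiated ones. The groups overlapped, since mock culture 3 (6.49) lay below irradiated culture 1 (6.51), while each irradiated culture lay below its own partner. It fell by 0.68 (SE 0.072, limma adjusted p = 0.0164). The third irradiated array lay below the background limit, so that array gives only an upper bound on its signal.

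LINC00938 gave 7.22, 7.04 and 6.99 in mock cultures and 6.78, 6.42 and 6.55 in irradiated ones. The groups did not overlap. It fell by 0.50 (SE 0.073, limma adjusted p = 0.0268). LINC00294 gave 8.22, 8.35 and 8.53 in mock cultures and 7.79, 8.08 and 7.95 in irradiated ones. Again no irradiated array reached a mock array, and the fall was 0.43 (SE 0.083, limma adjusted p = 0.0444). With arrays rescaled by quantiles, by cyclic loess or to a common median, LINC02035, LINC01004 and LINC00938 kept their calls and LINC00294 lost its call (adjusted p = 0.0858, 0.101 and 0.0944). LINC02035 and LINC01004 also passed without each culture pair, LINC00938 only without pair 1, and LINC00294 in none of these 3 fits.

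LINC00415 was the 1 member called higher. Its signals were 6.38, 6.76 and 6.50 in mock cultures and 7.43, 7.75 and 6.95 in irradiated ones. All irradiated arrays lay above all mock arrays, with the smallest step in pair 3 (1.05, 0.99 and 0.46). The gene rose by 0.83 (SE 0.12, 95% confidence interval 0.54 to 1.13, limma adjusted p = 0.0268), a 1.78-fold higher signal. It kept its call under the 3 rescalings, while without culture pair 1 or 2 the adjusted p was 0.0501 and 0.0664.

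The promoter windows of the genes with the largest fall and rise are shown to let their letters be compared. Sequences are RefSeq windows of build GRCh38.p14, from 250 bases before to 50 after the start, 5′ to 3′ on the gene's strand. Capitals mark matches, on either strand, to TATAAA (the TATA box), the CCAAT box, the AP-1 element, a core of the interferon-stimulated response element or the GC box. The AP-1 element was searched as TGANTCA. The GC box was searched as GGGCGG. LINC02035 lies at chr3:122886263-122886562 on the plus strand and LINC00415 at chr13:26059473-26059772 on the minus strand.
LINC02035: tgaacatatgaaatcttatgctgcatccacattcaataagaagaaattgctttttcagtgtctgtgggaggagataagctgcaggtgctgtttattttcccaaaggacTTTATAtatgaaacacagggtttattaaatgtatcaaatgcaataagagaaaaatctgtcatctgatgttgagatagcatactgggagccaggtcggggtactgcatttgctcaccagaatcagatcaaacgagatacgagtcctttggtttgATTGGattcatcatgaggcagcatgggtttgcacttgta
LINC00415: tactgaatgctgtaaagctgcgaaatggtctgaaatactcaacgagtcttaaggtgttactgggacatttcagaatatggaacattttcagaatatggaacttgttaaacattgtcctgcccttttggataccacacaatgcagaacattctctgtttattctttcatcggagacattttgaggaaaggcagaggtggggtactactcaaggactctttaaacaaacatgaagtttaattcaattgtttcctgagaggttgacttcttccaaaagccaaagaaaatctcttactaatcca
The LINC02035 window held 1 TATAAA and 1 CCAAT match, both read on the opposite strand and not overlapping. The TATAAA match lies among the 250 bases before the start, and the CCAAT match among the 50 bases after it. The LINC00415 window held none of the 5 motifs. RefSeq windows were found for 84 of the 108 members, some with several starts, 106 windows in all. TATAAA occurred in 7 of the 106 (6.60%, against 11.5% of all 35116 windows), the CCAAT box in 40 (37.7%, against 34.6%), the AP-1 element in 11 (10.4%, against 7.71%), the interferon element in 2 (1.89%, against 3.57%) and the GC box in 55 (51.9%, against 45.0%). The nearly identical windows of LINC01061, LINC01001 and LINC01002, shown further below, each hold an AP-1 and a CCAAT match. Those counts thus include the same sequence several times, and the shares were not taken without it. These are counts of letters in a window and say nothing of a factor's binding.

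**Figure D3:**
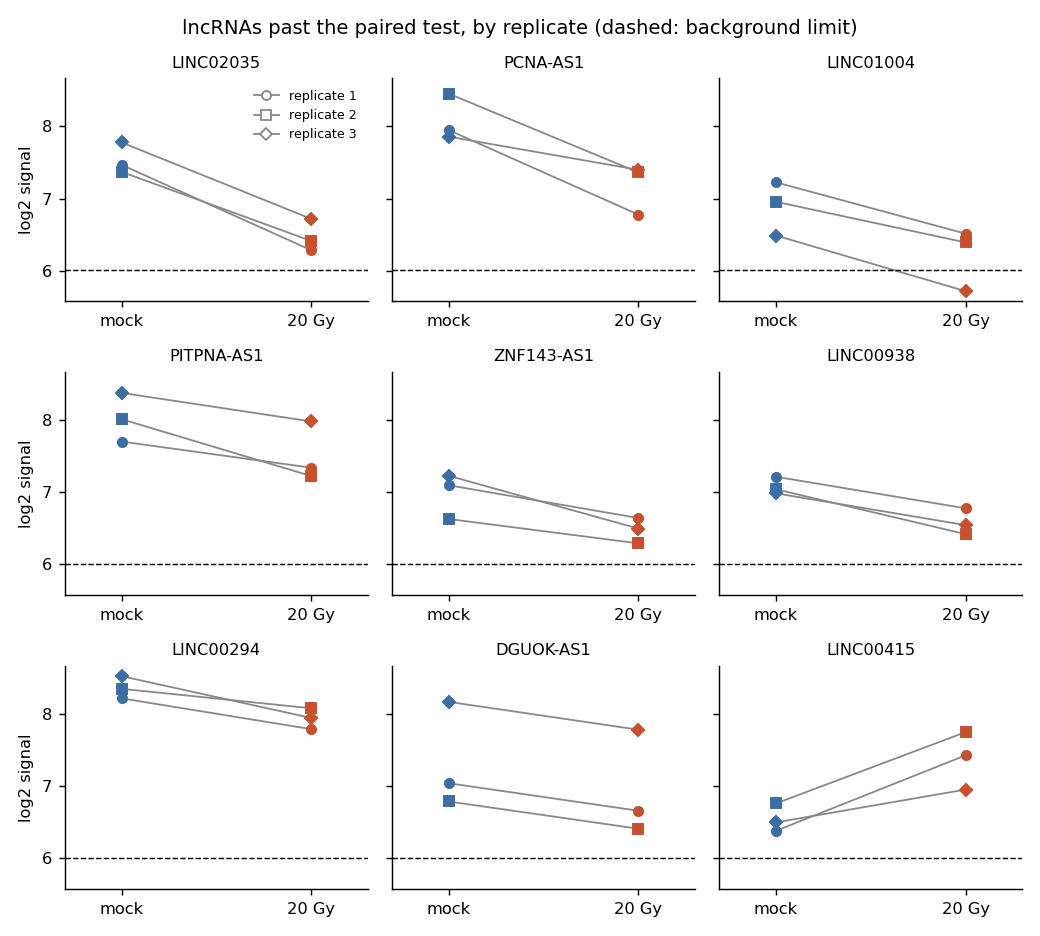
Log2 signal of the 9 lncRNA genes past the paired test, by group, with a line for each culture pair and a marker for each replicate number; the dashed line is the background limit. In each panel all 3 lines run the same way, downward in 8 and upward in LINC00415.

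All 4 antisense genes that passed were lower, and 0 of their sense genes passed. Of all 9331 genes tested 341 were called lower and 118 higher, 4.92% in all. Beside these shares, counts out of 4 show nothing particular to these pairs. PCNA-AS1 runs opposite PCNA, the sliding clamp of DNA replication. Its signals were 7.95, 8.45 and 7.86 in mock cultures and 6.78, 7.36 and 7.40 in irradiated ones, with no overlap between groups. It fell by 0.91 (SE 0.14, 95% confidence interval -1.25 to -0.57, limma adjusted p = 0.0295), 1.88-fold, and the pairs gave -1.17, -1.09 and -0.46. PCNA itself gave 12.62, 12.92 and 12.18 in mock and 12.46, 12.89 and 12.62 in irradiated cultures. Its difference was 0.089 (95% confidence interval -0.21 to 0.39, limma adjusted p = 0.662), so a change of PCNA as large as that of PCNA-AS1 lies outside its interval. The gap between the antisense and the sense difference, -0.996, was the widest of the 42 pairs in which both genes were above the limit. In RefSeq the nearest start of PCNA lies 372 bases from that of PCNA-AS1, with the 5′ ends overlapping.

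PITPNA-AS1 is the antisense partner of PITPNA, a phosphatidylinositol transfer protein. It gave 7.70, 8.02 and 8.38 in mock cultures and 7.34, 7.23 and 7.98 in irradiated ones. The groups overlapped, and the call came from the pair differences of -0.36, -0.79 and -0.40. It fell by 0.52 (SE 0.10, limma adjusted p = 0.0444), while PITPNA lay at 0.0013 (95% confidence interval -0.18 to 0.18).

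ZNF143-AS1 lies head to head with ZNF143, a zinc finger factor that binds many promoters. It gave 7.10, 6.63 and 7.23 in mock cultures and 6.64, 6.29 and 6.50 in irradiated ones, overlapping between groups but lower in each pair. It fell by 0.51 (SE 0.091, limma adjusted p = 0.0361). ZNF143 lay at -0.11 (95% confidence interval -0.32 to 0.092, limma adjusted p = 0.412). Their RefSeq starts are 314 bases apart, so that the windows share 187 bases, which the capitals mark in the ZNF143-AS1 window, chosen for display after its values were seen (chr11:9460649-9460948, minus strand).
ZNF143-AS1: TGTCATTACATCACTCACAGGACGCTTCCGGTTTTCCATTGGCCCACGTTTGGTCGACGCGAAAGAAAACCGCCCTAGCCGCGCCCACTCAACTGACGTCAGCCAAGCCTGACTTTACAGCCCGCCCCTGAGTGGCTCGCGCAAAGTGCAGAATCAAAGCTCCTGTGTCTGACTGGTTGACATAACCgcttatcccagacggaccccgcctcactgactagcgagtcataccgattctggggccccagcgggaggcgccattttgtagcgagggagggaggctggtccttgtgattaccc
Only ZNF143-AS1 passed the test, but ZNF143 was also lower in each pair (-0.0028, -0.30 and -0.040). The interval of ZNF143-AS1, -0.73 to -0.29, overlaps that of ZNF143, and whether the antisense and the sense difference differ was not tested.

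DGUOK-AS1 is the antisense partner of DGUOK, the mitochondrial deoxyguanosine kinase. It gave 7.04, 6.79 and 8.17 in mock cultures and 6.66, 6.41 and 7.78 in irradiated ones. Cultures numbered 3 stood well above the others in both groups, yet the pairs gave -0.38, -0.38 and -0.39. It fell by 0.38 (SE 0.065, limma adjusted p = 0.0337), and DGUOK lay at -0.046 (95% confidence interval -0.22 to 0.13). After rescaling, PCNA-AS1 kept its call, while PITPNA-AS1, ZNF143-AS1 and DGUOK-AS1 lost theirs (adjusted p from 0.0623 to 0.103). With a culture pair left out, these 3 passed in none of the fits, and PCNA-AS1 passed only without pair 3 (adjusted p = 0.0526 and 0.0722 without pairs 1 and 2).

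Across antisense and sense genes the differences showed no common course. A sense gene was measured for 59 of the 64 antisense members, and for 42 it was also above the limit. Pairs were formed by platform name. The 42 thus include HNRNPU-AS1, which RefSeq lists as an older name of HNRNPU itself, and FAM83H-AS1, now the coding gene IQANK1. Both pairs are kept in the counts and correlations below. Of these 42 sense genes 2 passed the test (4.76%, against 4.92% of all genes), both lower, and neither antisense partner passed. KRT10, a keratin of the suprabasal epidermis, fell by 0.36 (limma adjusted p = 0.0472), with cultures numbered 3 far above the others in both groups (13.43 and 13.16, against 7.72 to 8.44), and KRT10-AS1 lay at -0.27 (adjusted p = 0.0893). UNC5B, a netrin receptor, fell by 0.47 (limma adjusted p = 0.0355), and UNC5B-AS1 lay at -0.35 (adjusted p = 0.154). Neither sense gene passed after rescaling or with any culture pair left out. These 2 pairs were chosen after their values were seen. In 24 of 42 pairs both differences had the same sign, and Pearson's r across the pairs was -0.16 (Spearman's rho -0.14), a description over genes that share the same 6 arrays. EPB41L4A-AS1, first described as a transcript induced by growth arrest, lay at 0.15 (adjusted p = 0.255) beside EPB41L4A at -0.33 (adjusted p = 0.0527).

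RefSeq starts allowed a layout for 48 pairs. In 15 the genes ran apart from starts within 1000 bases, in 5 the 5′ ends overlapped within that distance, and in 28 the starts lay farther apart. The median antisense difference was -0.13, -0.043 and -0.056 in these layouts, where the median over all genes tested was -0.090. Each layout held 1 call, too few to set against the 4.92% of all genes, and the layouts were not compared by a test. How the array and its labelling keep the strands apart is not given in the sources used here.

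**Figure D4:**
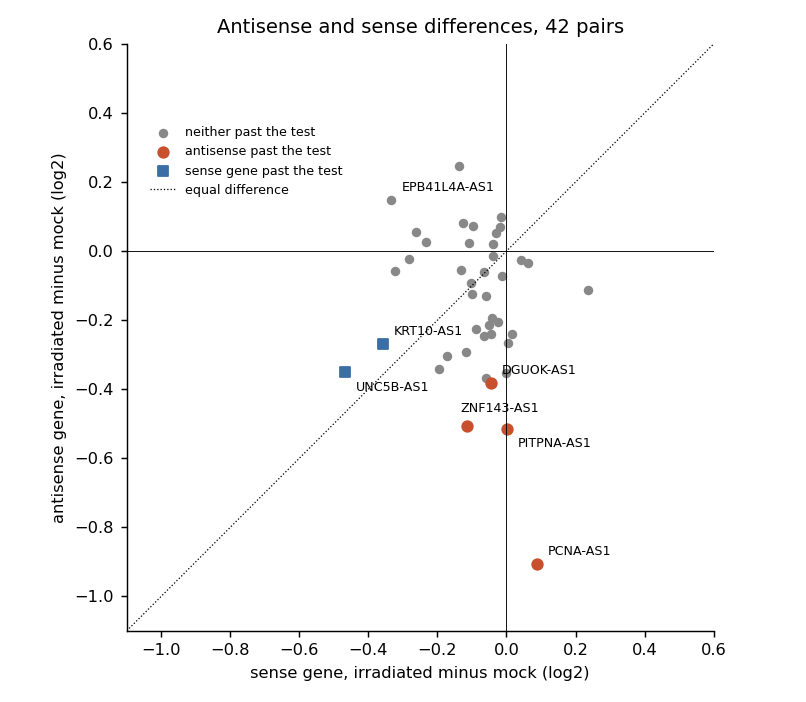
Difference after irradiation (irradiated minus mock, log2) of 42 genes with antisense platform names against that of their sense genes, all above the limit, with orange circles for antisense genes and blue squares for sense genes past the test. The 4 called antisense genes lie below -0.3 while their sense genes lie between -0.2 and 0.1, and the dotted line marks equal differences.

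Of the 8 members with the highest mean signal 0 passed, a count too small to set against the 4.92% of all genes. OIP5-AS1, also called Cyrano, a conserved lncRNA that promotes the breakdown of microRNA miR-7, gave 12.20, 12.16 and 12.26 in mock cultures and 12.05, 11.82 and 12.03 in irradiated ones. These groups did not overlap, with a difference of -0.24 (SE 0.078, limma adjusted p = 0.112). LINC00963 spanned only 10.16 to 10.40 over all arrays, with a difference of -0.048 (95% confidence interval -0.22 to 0.12). The other 6, LINC01000, LINC01002, LINC01001, LINC00999, LINC00265 and LINC01061, all had their lowest array in irradiated culture 3, as did 35 of the 108 members. The same count over all genes tested was not taken, so nothing particular to the members can be read from it. The median pair differences of these 6 LINC genes were -0.22, 0.054 and -0.55. LINC01002 gave 11.62, 11.68 and 10.52 in mock cultures and 11.30, 11.95 and 10.13 in irradiated ones, a pattern in which replicate number 3 stood low in both groups.

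Among these, LINC01061, LINC01001 and LINC01002 lie on chromosomes 4, 11 and 19, and their promoter windows are nearly the same. They were the only member pairs whose windows shared a run of 25 bases. The windows are shown, chosen after the values were seen, with the run of 66 bases common to all 3 in capitals (GRCh38.p14, chr4:119410611-119410910, chr11:131804-132103 and chr19:202160-202459, all on the minus strand).
LINC01061: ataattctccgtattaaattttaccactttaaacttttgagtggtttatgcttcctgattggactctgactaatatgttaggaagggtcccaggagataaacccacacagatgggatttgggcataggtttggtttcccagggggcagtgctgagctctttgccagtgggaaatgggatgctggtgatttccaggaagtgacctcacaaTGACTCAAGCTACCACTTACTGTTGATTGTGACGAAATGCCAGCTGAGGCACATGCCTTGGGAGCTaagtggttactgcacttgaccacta
LINC01001: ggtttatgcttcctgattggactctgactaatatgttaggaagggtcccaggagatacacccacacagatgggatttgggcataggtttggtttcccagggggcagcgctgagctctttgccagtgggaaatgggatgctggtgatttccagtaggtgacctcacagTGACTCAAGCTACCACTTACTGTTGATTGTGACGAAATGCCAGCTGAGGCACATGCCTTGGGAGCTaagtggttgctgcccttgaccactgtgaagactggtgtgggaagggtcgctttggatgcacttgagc
LINC01002: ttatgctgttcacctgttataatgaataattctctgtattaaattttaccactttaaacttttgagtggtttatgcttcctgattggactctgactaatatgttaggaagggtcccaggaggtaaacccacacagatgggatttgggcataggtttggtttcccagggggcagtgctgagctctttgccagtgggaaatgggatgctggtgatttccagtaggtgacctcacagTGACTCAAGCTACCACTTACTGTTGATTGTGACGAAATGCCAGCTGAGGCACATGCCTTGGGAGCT
Aligned stretches of 233 to 275 bases were 97.3% to 98.7% identical. Only these promoter windows were compared, so whether the 3 clusters share probe signal was not tested. Their differences were -0.32, -0.20 and -0.14, and none passed (limma adjusted p = 0.136, 0.317 and 0.509). The promoter table holds no entry for LINC01000 or LINC00999.

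**Figure D5:**
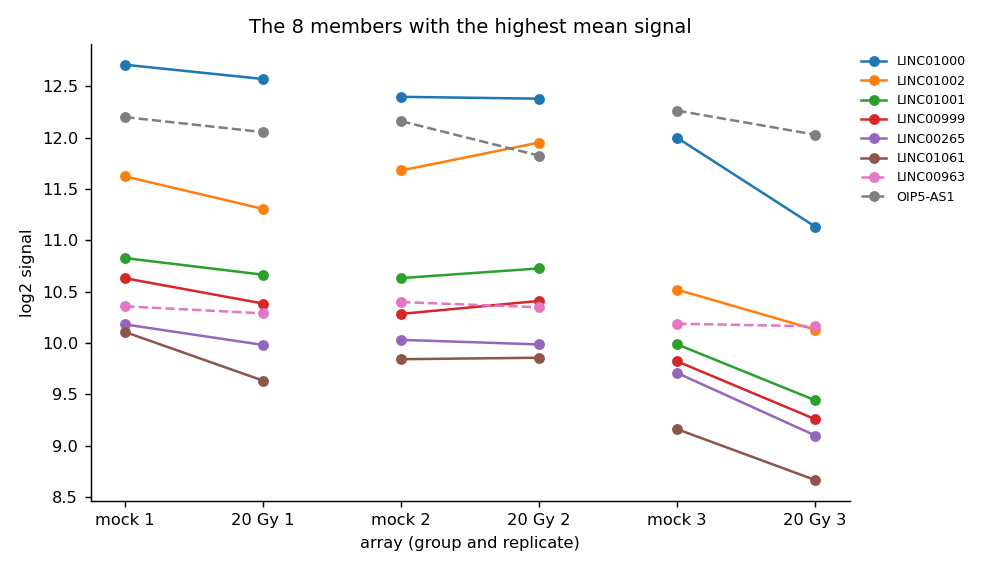
Log2 signal of the 8 members with the highest mean signal on each array, with a line joining the mock and irradiated culture of the same replicate number. The 6 LINC genes with solid lines have their lowest value on the third irradiated array, while LINC00963 and OIP5-AS1 (dashed) vary by less than 0.5.

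Several members differed far more between cultures than between groups. The range of the 3 culture means exceeded the size of the irradiation difference for 91 of 108 members (84.3%, against 88.5% of all genes tested). The median range was 0.44, against 0.42 over all genes tested, so this is not particular to the members. LINC00707 gave 7.61, 10.68 and 8.55 in mock cultures and 7.35, 10.58 and 8.04 in irradiated ones. Replicate number 2 was high in both groups, and the difference of -0.29 did not pass (limma adjusted p = 0.111). HNRNPU-AS1, chosen after its values were seen, gave 9.77, 10.87 and 8.18 in mock and 9.18, 11.04 and 7.87 in irradiated cultures, with the same replicate number high and a difference of -0.25 (adjusted p = 0.289).

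Of the lists of keratinocyte and squamous carcinoma, DNA damage and cell cycle, interferon and inflammation, and growth and adhesion lncRNAs, 4, 2, 1 and 7 genes were members, and 0 of these 14 passed, where 4.92% of all genes did, a share at which 0 of 14 shows nothing particular to them. LINC00941, which restrains keratinocyte differentiation, gave 6.82, 6.61 and 5.12 in mock cultures and 6.66, 6.99 and 5.64 in irradiated ones. Culture 3 lay below the limit in both groups, and the difference of 0.25 (95% confidence interval -0.069 to 0.56) did not pass, with 0.11 to 0.45 when a pair was left out. LINC00152 lay at 0.15 (95% confidence interval -0.22 to 0.51), with replicate number 2 highest in both groups, at 7.98 and 8.62. Without that pair its value was -0.10, and without pair 3 it was 0.31. LINC00472, described as a growth suppressor in breast cancer cells, lay at 0.23 (interval -0.19 to 0.66), with 0.43 without pair 1 and -0.055 without pair 2. LINC00875, now LINC01138, lay at 0.12 (interval -0.057 to 0.30), with 0.081 to 0.19 when a pair was left out. HLA-F-AS1 lay at -0.053 and its sense gene HLA-F, a class I antigen, at -0.13 (adjusted p = 0.287). TMPO-AS1 lay at 0.097 and TMPO, which encodes lamina-associated polypeptides, at -0.016. SBF2-AS1 (-0.058), CD27-AS1 (-0.039) and FAM83H-AS1 (-0.015) were also close to 0, with SBF2 at -0.32 (adjusted p = 0.0615), FAM83H at -0.038 and CD27 below the limit. The other growth and adhesion members were OIP5-AS1 (-0.24) and TTN-AS1 (-0.26, limma adjusted p = 0.082), both lower in all 3 pairs, and HOXC-AS3 (0.044). TTN-AS1 and HOXC-AS3 were named after their values were seen.

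Other LINC and antisense genes had large differences without a call. LINC00508 gave 6.57, 7.15 and 6.69 in mock and 7.32, 7.02 and 7.38 in irradiated cultures, higher in pairs 1 and 3 only (0.44, limma adjusted p = 0.151; 0.72 and 0.0294 without pair 2). Without pair 1 or 3 the value was 0.28 or 0.31 (adjusted p = 0.377 and 0.375). LINC00273 went from 9.25, 9.34 and 8.93 to 8.88, 10.20 and 9.72, higher in pairs 2 and 3 only (0.43, adjusted p = 0.268; 0.83 and 0.0235 without pair 1). Without pair 2 or 3 the value was 0.21 or 0.24 (adjusted p = 0.661 and 0.594). EGFLAM-AS1 lay at 0.32 (adjusted p = 0.276), higher in pairs 1 and 3, with 0.61 (adjusted p = 0.0618) without pair 2 and 0.10 without pair 3, while EGFLAM was below the limit. Just past the threshold lay 6 members with an adjusted p between 0.05 and 0.07, chosen after their values were seen. That count was not taken over all genes tested, so it shows nothing particular to the members. LINC00667 (-0.41), PSMD6-AS2 (-0.37), ZBED5-AS1 (-0.34), PSMA3-AS1 (-0.29) and LINC00969 (-0.29) were lower in all 3 pairs, and LINC00489 (0.26) was higher in all 3, from 5.92, 5.98 and 6.02 to 6.24, 6.23 and 6.23. The mock mean of LINC00489, 5.97, lay below the background limit, so it was a member only through its irradiated arrays.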

How the data were processed

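Per the submitters' processing notes the authors made the deposited log2 signals with RMA, which corrects background, normalizes by quantiles and summarises probes. No version, library file or genome build is stated there. Of 70523 features, 67528 were transcript clusters. The platform annotation gave 23781 of them 1 symbol and 1543 clusters several. Symbols were updated through RefSeq's gene table (GRCh38.p14), and the cluster with the highest mean stood for a gene, except that a name matching the member pattern kept its own cluster. Of the members, 74 matched by gene number, 21 by symbol and 13 by synonym. The pattern applied to updated symbols would give 99 members, 96 of them shared.

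Differences (irradiated minus mock) were tested on the deposited values with limma 3.58.1 in R 4.3.3, lmFit and eBayes with a variance trend, two-sided, over 9331 genes above the limit. The replicate number, taken from the titles, was a block. Deviations of same-numbered cultures from their groups' means had correlations of 0.852, 0.906 and 0.923 over these genes, and those of different numbers -0.713 to 0.032, so the numbers were taken to pair the cultures. With the block, the p-values measure the spread of the pair differences and not the spread between cultures. The fit was checked on simulated data.

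Members, lists and this test were chosen with earlier results of these data known. Named genes were all members past the threshold, the 8 with the highest mean, those nearest the limit, the 4 largest differences each way, up to 5 per list and the 4 widest antisense gaps, with their sense genes. Alternatives were no block, other feature sets, a limit of 7, 3 rescalings, no variance trend and leaving out each culture pair. The deposited exon-level log2 table gives no gene for its features and was not used.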

Additional observations from a re-analysis of the deposited data

How the results depend on the processing

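The counts depended on the settings. Without the replicate block, over all transcript clusters and over all genes with a single symbol, 0 members were called higher, 0 lower and 0 sense genes passed. Without the block but over all clusters 0 members passed as well (9 at unadjusted p under 0.05, as were 4822 of all 67528 clusters). With a limit of 7, 0 of the 44 members tested were called higher and 5 lower. LINC00415, LINC01004, LINC00938 and ZNF143-AS1 had means below 7 and were not tested there. The 5 lower calls were LINC02035, PCNA-AS1, PITPNA-AS1, LINC00294 and DGUOK-AS1, all called in the main fit too. At that limit 3 sense genes passed, EPB41L4A having gained a call (adjusted p = 0.0489). After quantile normalization and cyclic loess 1 was called higher and 4 lower (20.0% of calls higher, against 11.1%), and after centring each array 2 were higher and 4 lower (33.3%), the second higher call being LINC00489, whose mock mean of 5.97 lay below the limit and which was tested only through its irradiated arrays. Over all genes tested the calls went from 118 higher and 341 lower in the main fit to mostly higher ones after rescaling. They were 119 and 84 after quantile normalization, 128 and 75 after cyclic loess and 180 and 89 after centring. With a limit of 7, 107 of all genes were higher and 342 lower. Calls under the 3 rescalings were 4.63% to 5.56% of members, against 2.18% to 2.88% of all genes, and 0 sense genes passed. Leaving out culture pair 1, 2 or 3 left 2 to 4 lower calls, 0 sense genes and 1 higher call, which was LINC00273, LINC00508 and LINC00415 in turn, and LINC02035 and LINC01004 passed each time, whereas LINC00938 and PCNA-AS1 each passed in 1 of the 3. Over all genes these 3 fits called 94 higher and 157 lower, 40 and 26, and 65 and 75. The members' median difference was -0.20 with a limit of 7, -0.027 after quantile normalization, -0.0093 after cyclic loess and 0.024 after centring, where the median of all genes tested was 0.010. The median of all genes moved by up to 0.1 under rescaling, and the cause of the other shifts was not tested. For the 9 called members, 57 of 95 values under an alternative lost the call and 0 changed sign. The number of arrays and signals near background limit what could be detected.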

Other observations

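Applying the name pattern to updated symbols adds genes that carry an older name on the platform. ELN-AS1 gave 8.23, 8.52 and 8.11 in mock cultures and 8.37, 8.72 and 8.47 in irradiated ones, a difference of 0.23 (limma adjusted p = 0.114). OTUD6B-AS1 gave 8.46, 8.30 and 8.48 in mock and 8.30, 8.13 and 8.29 in irradiated cultures, a difference of -0.17 (adjusted p = 0.154). RNF217-AS1 lay at -0.029 (adjusted p = 0.874). None of these 3 passed the paired test.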
